A study of Mus musculus with 6 samples.

Results

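The MYC family and its partners were examined as 10 genes chosen by name: Myc, Mycn and Mycl, which encode the MYC transcription factors, their shared partner Max, the MXD antagonists Mxd1, Mxi1, Mxd3 and Mxd4, and the MAX-binding repressors Mnt and Mga. All 10 were found among the 13743 entries of the deposited expression table, and all 10 reached the level asked of a tested gene, a mean of at least 1 RPKM (a read count divided by transcript length and by library size), as did 11428 entries in all. The cells were mouse embryonic stem cells (ESCs) of the strain C57/129 and the genotype Dgcr8-/-. All 3 groups carry this deletion, so the CTR cells also lack the nuclear cofactor needed to make canonical microRNAs. The groups were cells transfected with a miR-294 mimic, cells transfected with an siRNA against Mbd2 (siMbd2) and transfected CTR cells. Each had 2 libraries of total RNA, taken 48 h after transfection. Mimic and siRNA were used at 50 nM, on cells plated 16 h before. The deposited table heads the columns of these libraries CTR, while its fold columns name the control mock. What these wells received is not stated. Neither is it stated whether replicates were separate cultures or how many clones the Dgcr8-/- cells came from, so p-values measure only the spread between these libraries. In bulk RNA, fewer cells of a type and less RNA per cell cannot be told apart.

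MYC proteins bind DNA as dimers with MAX, at the E-box CACGTG and related sites, and raise the transcription of genes for ribosome production, metabolism and the cell cycle. MXD proteins and MNT compete for MAX and for the same sites, and recruit the SIN3 histone deacetylase complex. MGA joins MAX in a variant Polycomb complex, PRC1.6, that keeps germline genes silent in ESCs. In mouse ESCs Myc and Mycn overlap in function and support self-renewal. The miR-290 cluster, to which miR-294 belongs, is the main microRNA cluster of these cells, and MBD2 binds methylated CpG sites as part of the NuRD repressor.

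The sequences examined here are the seed of the microRNA and its matches in the 3' UTRs of these genes. The mature miR-294 sequence (RefSeq, GRCm38.p6, chr7:3220691-3220712, plus strand) is shown with its seed, bases 2 to 8, in capitals. The exact sequence of the purchased mimic was not given in the sources used here.
mmu-miR-294-3p: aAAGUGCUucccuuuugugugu
The same seed, AAGUGCU, is carried by 5 mature mouse microRNAs in the RefSeq table: miR-291a-3p, miR-294-3p, miR-295-3p, miR-302b-3p and miR-302d-3p. MicroRNAs absent from that table were not searched, so the list may be incomplete. The DNA strand letters searched were the 8-base match AGCACTTA, the 7-base matches AGCACTT and GCACTTA and the 6-base match GCACTT, on the transcript strand only. The 6-base match lies inside the longer ones, and each position was counted once as its longest class. Taking for each gene the longest 3' UTR in GENCODE vM21 (GRCm38), 6 of the 10 genes held a 7- or 8-base match, and the number stayed at 6 when all annotated 3' UTRs were searched. The matches below are shown in capitals with flanking bases on the transcript strand. They were chosen because they cover each gene with a match, and for Mxi1 and Mga the pairs of the longest class.
Mycn (chr12:12936140-12936146, minus strand): ttagtgctgcaccttagAGCACTTtgaa
Mxd1 (chr6:86648922-86648928, minus strand): gatctctgtattcttagAGCACTTgaca
Mxi1, upstream match (chr19:53372874-53372880, plus strand): ttaacatagttacgttcAGCACTTgtct
Mxi1, downstream match (chr19:53373421-53373427, plus strand): ctttttgtgcctgcaaaAGCACTTcgcc
Mxd3 (chr13:55325600-55325606, minus strand): cccagggaatttcatgtAGCACTTggcc
Mxd4, 6-base match only (chr5:34174952-34174957, minus strand): cattttctgcccatctggGCACTTcagt
Mnt (chr11:74845658-74845664, plus strand): atactatccatgtaataAGCACTTgcct
Mga, upstream match (chr2:119965450-119965457, plus strand): gcacacttgtaattccAGCACTTAgaag
Mga, downstream match (chr2:119966752-119966759, plus strand): ctctagacaggtcatcAGCACTTAacct
Myc, Mycl and Max held none of these letters in their longest 3' UTRs.

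The values of the whole series bear on these genes as follows. Mbd2, the target of the siRNA, stood at 11.3 and 12.3 RPKM with miR-294, at 7.33 and 6.34 RPKM with siMbd2 and at 26.8 and 27.9 RPKM in CTR, so every treated library lay below both CTR libraries. Dgcr8 mRNA was listed at 6.66 to 8.44 RPKM in the 6 libraries, and values per gene do not tell an intact transcript from a disrupted one. Depth is unknown, since the table holds no read counts. Summed RPKM was 493079 and 488568 with miR-294, 470333 and 464663 with siMbd2, and 450520 and 429460 in CTR. Replicates differed by a median of 0.0626 on the log2 scale with miR-294, 0.0602 with siMbd2 and 0.136 in CTR, so the CTR pair was the least alike. Of 12 ESC markers all were tested, and their summed RPKM was 5988 and 6014 with miR-294, 7599 and 7248 with siMbd2, and 6706 and 6272 in CTR. Dppa5a alone made up the largest part of each sum and has the same order of groups. It had 2958 and 2989 RPKM with miR-294, 4715 and 4375 RPKM with siMbd2, and 3977 and 3642 RPKM in CTR. The sum is therefore no measure of the 12 markers as a set. Of 8 feeder fibroblast markers 3 had values, which summed to 4.06 and 3.72 RPKM with miR-294, 1.26 and 1.45 RPKM with siMbd2, and 1.78 and 1.66 RPKM in CTR. The fibroblast collagen gene Col1a1 was at most 0.29 RPKM in any library. Of 11 markers of differentiated lineages 9 had values, which summed to 40.6 and 42.0 RPKM with miR-294, 52.5 and 51.5 RPKM with siMbd2, and 46.0 and 42.8 RPKM in CTR. Krt18 was the largest part, with 27.7 and 28.8 RPKM with miR-294, 28.6 and 28.8 RPKM with siMbd2, and 21.1 and 17.7 RPKM in CTR. It rose with miR-294 while 4 of the 5 tested markers fell. None of the listed markers was at 0 in every library. The part of these differences between groups in the results below was not tested.

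With miR-294, all 3 MYC genes rose against CTR and 3 of the 4 MXD genes fell. In all, 5 of the 10 genes rose (Myc, Mycn, Mycl, Max and Mga), 4 fell (Mxi1, Mxd3, Mxd4 and Mnt) and Mxd1 did not pass the test. Among all 11428 genes tested 27.7% rose and 36.8% fell, so a call in either direction was common in this comparison. With siMbd2, 3 of the 10 genes rose (Myc, Mnt and Mga) and 0 fell, against 19.5% higher and 14.9% lower among all genes. At an unadjusted limma p under 0.05, 4 were higher with siMbd2, Mycl being the additional one, and 0 were lower. Set directly against siMbd2, miR-294 gave 4 higher (Myc, Mycn, Mycl and Max) and 5 lower (Mxd1, Mxi1, Mxd3, Mxd4 and Mnt), with Mga not called, against 21.9% higher and 35.5% lower among all genes. These calls come from 1 limma model of log2(RPKM + 1) over the 6 libraries with Benjamini-Hochberg adjustment over all genes tested, two-sided, at an adjusted p under 0.05. Both treatments were set against the same CTR libraries, so their changes are not independent of each other. With 2 libraries a group, the smallest p of an exact permutation test is 0.333, so each call rests on the spread that limma pools over genes. The fit also takes 1 spread for all 3 groups, although the CTR pair was the least alike. For Mycn the SE of miR-294 was 0.053 against CTR and against siMbd2. With only the libraries of the groups compared it was 0.066 against CTR and 0.033 against siMbd2.

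**Figure D1:**
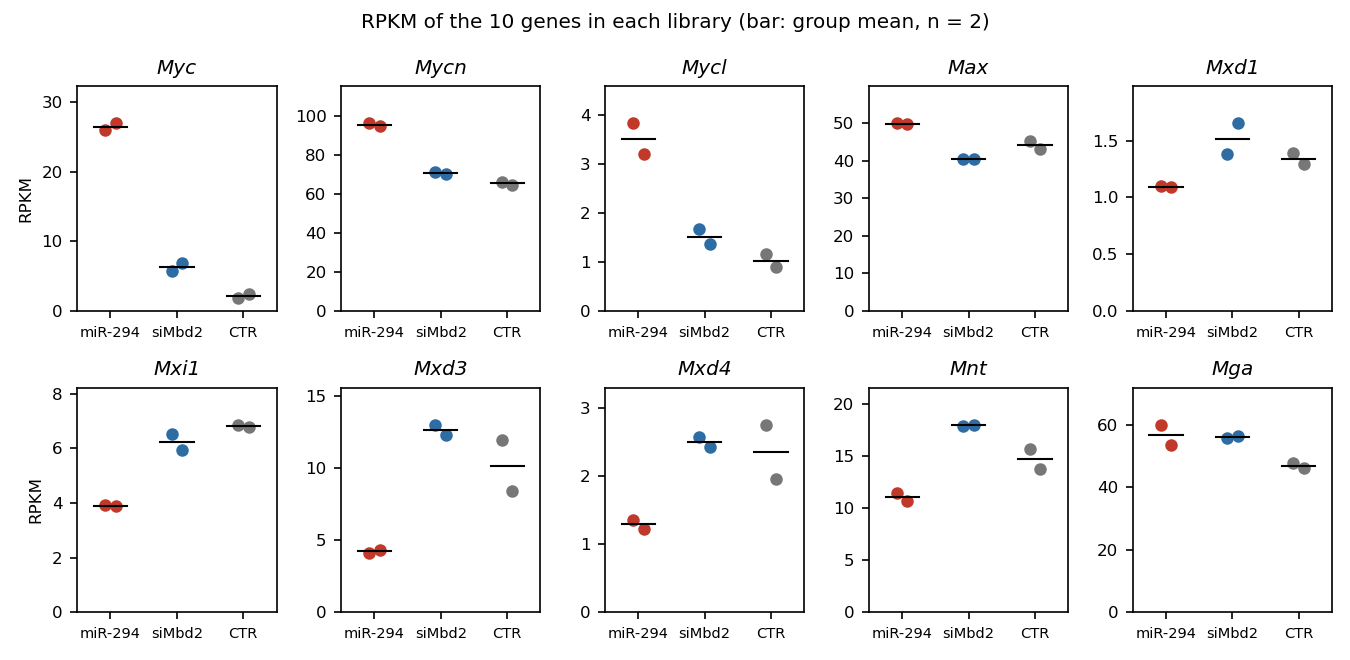
RPKM of each of the 10 genes (vertical axis, linear, from 0) in the miR-294, siMbd2 and CTR libraries; points are libraries and the bar is the group mean (n = 2). Myc stood at 26.0 and 27.0 RPKM with miR-294, above siMbd2 (5.71 and 6.91) and CTR (1.84 and 2.41), while Mxd3 stood at 4.13 and 4.34 RPKM with miR-294, below siMbd2 (13.0 and 12.3) and CTR (11.9 and 8.42).

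Myc, the broadly acting growth regulator of the family (chr15:61985391-61990374, plus strand, GRCm38), changed most. It had 26.0 and 27.0 RPKM with miR-294, 5.71 and 6.91 RPKM with siMbd2, and 1.84 and 2.41 RPKM in CTR. The 3 groups did not overlap, and siMbd2 lay between the other two. Mean levels were 26.5 ± 0.69 RPKM with miR-294, 6.31 ± 0.85 RPKM with siMbd2 and 2.12 ± 0.40 RPKM in CTR (SD, n = 2 each, as for all values after ± below). The limma log2 change of Myc with miR-294 was 3.14 (95% confidence interval 2.88 to 3.41, adjusted p = 1.14e-06). Only 0.0438% of the genes tested had a larger absolute change, and Myc ranked 18 by p. On the same scale Myc was 1.23 higher with siMbd2 than in CTR (interval 0.96 to 1.49, adjusted p = 3.95e-04), ranking 109 by p. Between the treatments the difference was 1.91, miR-294 being higher (interval 1.65 to 2.18, adjusted p = 8.59e-06), in the direct limma test. The authors' deposited table gives Myc fold values of 12.43 for miR-294 and 2.96 for siMbd2 over mock. These exceed the folds on the log2(RPKM + 1) scale, 8.82 for miR-294 and 2.34 for siMbd2 over CTR, because the added 1 RPKM weighs on the low CTR level.

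Mycn, the family member with the highest level in these cells (chr12:12936093-12941914, minus strand), had 96.0 and 94.9 RPKM with miR-294, 71.1 and 70.0 RPKM with siMbd2, and 66.3 and 64.6 RPKM in CTR. No group overlapped another, but the steps were small beside those of Myc. Mycn rose with miR-294 by 0.54 (SE 0.053, limma adjusted p = 4.63e-05) and was 0.43 higher there than with siMbd2 (adjusted p = 2.16e-04). The siMbd2 difference from CTR was 0.11 with an interval of -0.01 to 0.23 and did not pass the test (adjusted p = 0.148). Mycl, which encodes L-MYC (chr4:122995652-123002485, plus strand), had 3.82 and 3.19 RPKM with miR-294, 1.66 and 1.37 RPKM with siMbd2, and 1.16 and 0.89 RPKM in CTR. Its groups did not overlap either, at levels near the tested minimum. Mycl rose with miR-294 by 1.15 (SE 0.12, adjusted p = 5.40e-05) and was 0.84 higher there than with siMbd2 (adjusted p = 4.26e-04). For siMbd2 against CTR its difference was 0.31 (interval 0.05 to 0.58, adjusted p = 0.0677), which missed the threshold although the interval lay above 0. Without CTR replicate 1 the siMbd2 differences were 0.13 for Mycn, 0.41 for Mycl and 0.54 for Mxd3.

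Summed over the 3 MYC genes, the level was 126 and 125 RPKM with miR-294, 78.4 and 78.3 RPKM with siMbd2, and 69.3 and 67.9 RPKM in CTR. RPKM is scaled to length, so shares of a sum can be read across genes. Myc made up 21.1% ± 0.64 of the sum with miR-294, 8.05% ± 1.09 with siMbd2 and 3.10% ± 0.63 in CTR. Mycn made up 76.1% ± 0.30 with miR-294, 90.0% ± 0.84 with siMbd2 and 95.4% ± 0.38 in CTR, so it remained the main MYC mRNA in every library. There was 3.61 ± 0.12 times as much Mycn as Myc with miR-294, 11.3 ± 1.64 times as much with siMbd2 and 31.4 ± 6.52 times as much in CTR. Of the summed difference of miR-294 minus CTR, 56.8 RPKM as deposited, Mycn gave 52.8% and Myc 42.8%. These parts depend on the scaling, and their order was not tested under another one. With equal summed RPKM the log2 change with miR-294 was 0.38 for Mycn and 3.24 for Myc.

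Max (chr12:76937269-76962201, minus strand), the shared partner of MYC, MXD and MNT, had 49.9 and 49.9 RPKM with miR-294, 40.5 and 40.5 RPKM with siMbd2, and 45.2 and 43.1 RPKM in CTR. Within each treatment its libraries were nearly equal, and CTR lay between the treatments. Max was 0.17 higher with miR-294 than in CTR (SE 0.057, limma adjusted p = 0.0255). This call was lost in 8 of 16 alternative settings, among them equal summed RPKM (0.02, adjusted p = 0.777), quantile normalization (0.09, adjusted p = 0.176) and leaving out miR-294 replicate 1 (0.17, adjusted p = 0.128) or replicate 2 (0.17, adjusted p = 0.126). The direct difference of miR-294 from siMbd2 was 0.29 (adjusted p = 0.00238) and passed in all 16. With siMbd2, Max differed from CTR by -0.12 (interval -0.25 to 0.01, adjusted p = 0.129). Set against Max, the summed MYC level was 2.51 ± 0.0097 times as high with miR-294, 1.94 ± 0.0052 times with siMbd2 and 1.55 ± 0.031 times in CTR.

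**Figure D2:**
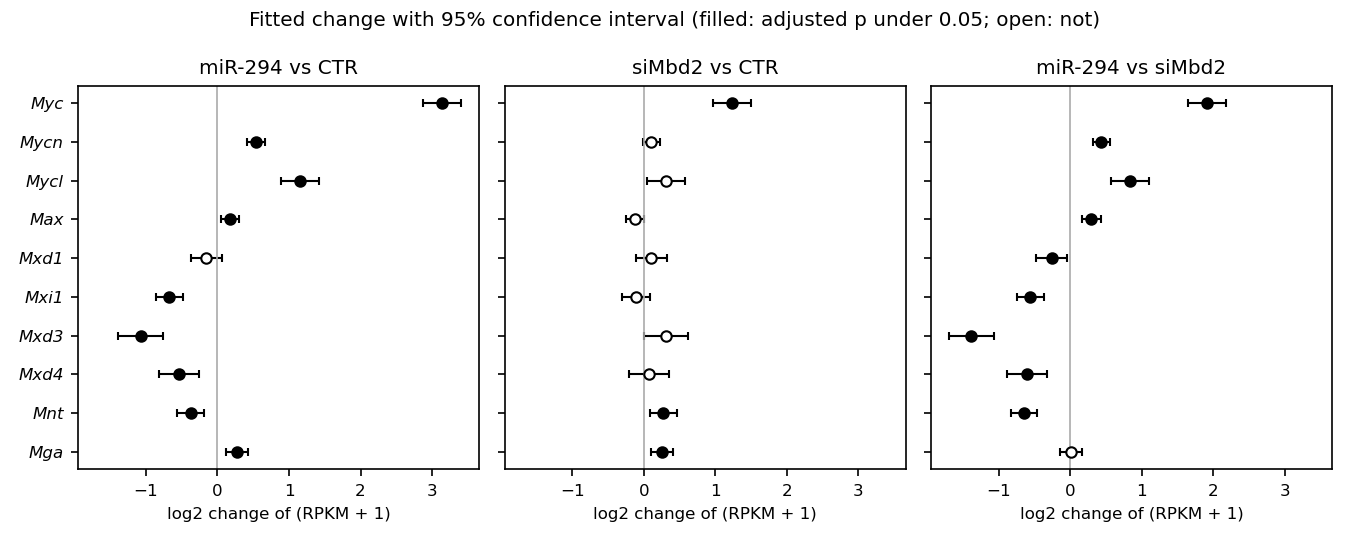
Fitted log2 change of RPKM + 1 for each gene (points) with its 95% confidence interval (bars), with a panel each for miR-294 vs CTR, for siMbd2 vs CTR and for the direct difference, miR-294 vs siMbd2; filled points passed an adjusted p under 0.05. Myc lay at 3.14 in miR-294 vs CTR and at 1.23 in siMbd2 vs CTR, and Mxd3 at -1.08 in miR-294 vs CTR and at 0.31 in siMbd2 vs CTR.

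Among the MXD antagonists, Mxd3, the member linked to dividing cells (chr13:55325168-55329823, minus strand), was the highest in CTR and fell the furthest with miR-294. Mxd3 had 4.13 and 4.34 RPKM with miR-294, 13.0 and 12.3 RPKM with siMbd2, and 11.9 and 8.42 RPKM in CTR. The miR-294 libraries lay below all others, and the CTR pair was spread the widest of any of the 10 genes (0.457 on the log2 scale). Mxd3 fell by 1.08 with miR-294 (SE 0.14, limma adjusted p = 1.81e-04) and lay at -1.38 in miR-294 against siMbd2 (adjusted p = 7.37e-05). The siMbd2 difference from CTR was 0.31 (interval -0.00 to 0.62, adjusted p = 0.113). Without CTR replicate 1 it was 0.54 with adjusted p = 0.00209. Exons of Mxd3 overlap those of Prelid1 on the opposite strand, and the strand setting of the authors' counting was not given in the sources used here, so reads of the pair cannot be told apart.

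Mxi1, an antagonist also known as a candidate tumour suppressor (chr19:53310518-53375810, plus strand), had 3.93 and 3.88 RPKM with miR-294, 6.52 and 5.96 RPKM with siMbd2, and 6.86 and 6.77 RPKM in CTR. Its miR-294 pair lay below the other 4 libraries. Mxi1 fell by 0.67 with miR-294 (SE 0.083, adjusted p = 1.68e-04) and lay at -0.56 against siMbd2 (adjusted p = 6.20e-04), while siMbd2 differed from CTR by -0.11 (interval -0.30 to 0.08). Mxd4 (chr5:34173883-34187720, minus strand), found mostly in differentiating cells, had 1.36 and 1.23 RPKM with miR-294, 2.57 and 2.43 RPKM with siMbd2, and 2.75 and 1.96 RPKM in CTR. Here siMbd2 lay inside the CTR range and miR-294 below it. Mxd4 fell by 0.54 with miR-294 (SE 0.12, adjusted p = 0.00445) and lay at -0.61 against siMbd2 (adjusted p = 0.00286). Mxd1, the founding member (chr6:86647042-86669161, minus strand), had 1.10 and 1.09 RPKM with miR-294, 1.38 and 1.65 RPKM with siMbd2, and 1.39 and 1.29 RPKM in CTR. Its miR-294 pair was the lowest, but the difference from CTR, -0.16 (interval -0.38 to 0.06, adjusted p = 0.173), did not pass. With equal summed RPKM it was -0.32 (adjusted p = 0.0408), which gave 5 of the 10 genes lower with miR-294. In that setting 49.4% of all genes were lower, so the count was near the share of all genes. Mxd1 was called lower in miR-294 against siMbd2 (-0.26, adjusted p = 0.0432), and lost that call in 6 of 15 alternative settings, with adjusted p between 0.0223 and 0.25 over all of them. Exons of Mxi1 overlap those of Gm10197 and exons of Mxd4 those of Gm42846 on the opposite strand, with the same limit as for Mxd3.

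The 4 MXD genes summed to 10.5 and 10.5 RPKM with miR-294, 23.5 and 22.4 RPKM with siMbd2, and 22.9 and 18.4 RPKM in CTR. Mxd3 gave 58.5% and Mxi1 28.7% of the summed difference of miR-294 minus CTR, -10.2 RPKM. The ratio of summed MYC to summed MXD level was 11.96 and 11.86 with miR-294, 3.34 and 3.50 with siMbd2, and 3.02 and 3.68 in CTR. The miR-294 pair thus stood apart, while both siMbd2 libraries lay within the CTR range although their MYC sum was above it. Set against Max, the MXD sum was 0.211 ± 0.0004 with miR-294, 0.566 ± 0.020 with siMbd2 and 0.468 ± 0.056 in CTR.

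**Figure D3:**
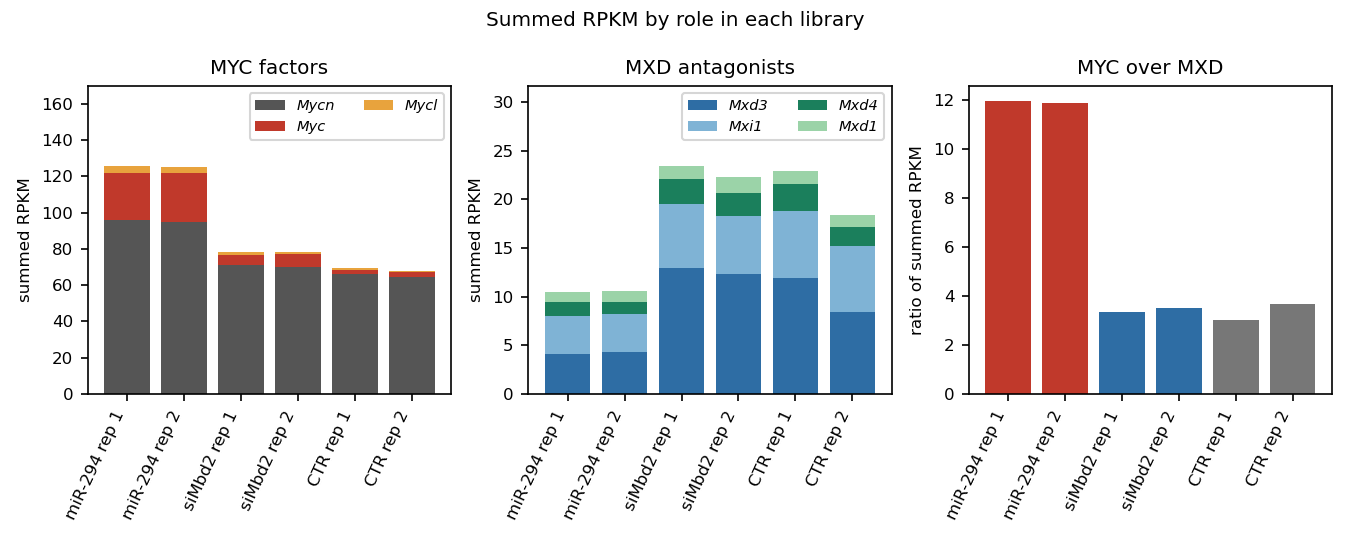
Summed RPKM of the MYC factors and of the MXD antagonists, stacked by gene, and the ratio of these sums (vertical axes from 0), in each of the 2 miR-294, 2 siMbd2 and 2 CTR libraries. The ratio was 11.96 and 11.86 with miR-294, 3.34 and 3.50 with siMbd2, and 3.02 and 3.68 in CTR.

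Mnt, a widely expressed repressor that uses the SIN3 complex as MXD proteins do (chr11:74830920-74845725, plus strand), had 11.5 and 10.7 RPKM with miR-294, 17.9 and 18.0 RPKM with siMbd2, and 15.7 and 13.8 RPKM in CTR. CTR lay between the treatments without overlap, so Mnt moved in opposite directions from it. It fell by 0.37 with miR-294 (SE 0.082, limma adjusted p = 0.00371) and rose by 0.27 with siMbd2 (SE 0.082, adjusted p = 0.0323). The test of the difference, miR-294 against siMbd2, gave -0.65 (adjusted p = 2.58e-04). The rise with siMbd2 lost its call in 7 of 16 alternative settings, among them leaving out either siMbd2 replicate or CTR replicate 2, with adjusted p between 0.0053 and 0.165 over all of them, and the fall with miR-294 in none of them.

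Mga, which carries both a T-box and a MAX-binding domain (chr2:119897228-119969581, plus strand), had 60.0 and 53.6 RPKM with miR-294, 55.8 and 56.4 RPKM with siMbd2, and 47.8 and 46.1 RPKM in CTR. Both treatments lay above CTR, and they overlapped each other. Mga rose by 0.27 with miR-294 (SE 0.067, limma adjusted p = 0.00773) and by 0.25 with siMbd2 (SE 0.067, adjusted p = 0.0215). The difference between the treatments was 0.02 with an interval of -0.14 to 0.17. With equal summed RPKM the miR-294 difference was 0.11 (adjusted p = 0.143), and without miR-294 replicate 1 it was 0.19 (adjusted p = 0.0957), so both ended the call. The siMbd2 call of Mga was lost in 4 of 16 settings, with adjusted p between 0.0141 and 0.137 over all of them.

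Ordered by mean RPKM, Mycn, Mga and Max stood highest in this order in all 3 groups. Below them the order differed between groups. Myc ranked 4 with miR-294, 6 with siMbd2 and 8 in CTR, and Mycl 8 with miR-294, 9 with siMbd2 and 10 in CTR. With miR-294 the order went on Myc, Mnt, Mxd3, Mxi1, Mycl, Mxd4 and Mxd1, and the libraries of neighbours in it did not overlap. With siMbd2 it went on Mnt, Mxd3, Myc, Mxi1, Mxd4, Mycl and Mxd1, where Myc could not be separated from Mxi1 by its libraries, nor Mycl from Mxd1. In CTR it went on Mnt, Mxd3, Mxi1, Mxd4, Myc, Mxd1 and Mycl, where the libraries of Mxd4 and Myc overlapped.

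The seed matches shown above stand beside changes in both directions. Of the 6 genes with a 7- or 8-base match, Mxi1, Mxd3 and Mnt fell with miR-294, Mxd1 did not pass the test, and Mycn and Mga rose. Mga holds a pair of 8-base matches and 1 7-base match in a 3' UTR of 4616 bases, more of these classes than any other of the 10 genes, and Mycn 1 7-base match in 913 bases. Mxi1 holds 2 matches of 7 bases and 2 of 6 bases in 4074 bases, and Mxd3 1 of 7 bases in 615 bases. Mxd4 fell with only a 6-base match in 3105 bases. Among the 10799 tested genes with a 3' UTR, which are 94.6% of those tested, 20.9% held a 7- or 8-base match. Their 3' UTRs were longer, with a median of 2471 bases against 767 bases in genes with no match. The median log2 change with miR-294 was -0.37 for the 399 genes whose best match had 8 bases, -0.22 for those with AGCACTT and -0.01 for those with none. A match is a description of letters, and binding was not measured.

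**Figure D4:**
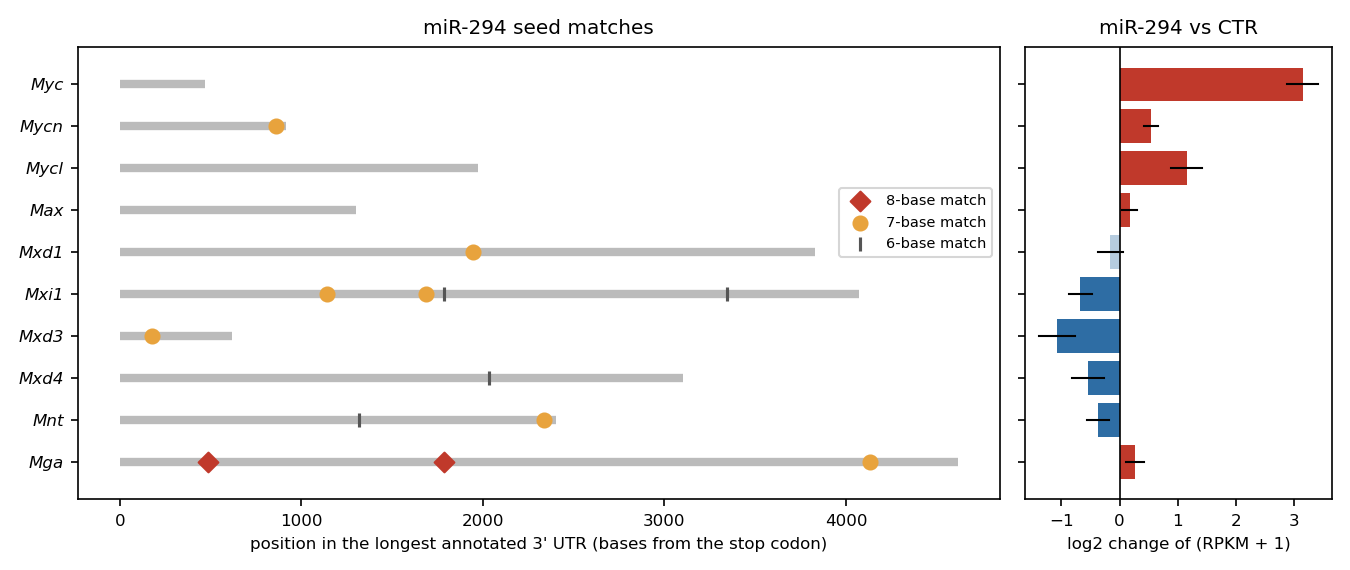
Left, the 3' UTR of each gene, its longest annotated one (grey line, bases from the stop codon) with its miR-294 seed matches of 8, 7 and 6 bases; right, the log2 change of RPKM + 1 in miR-294 vs CTR with its 95% confidence interval, pale where not called. Mga, with 2 matches of 8 bases, lay at 0.27, and Mxd3, with 1 of 7 bases, at -1.08.

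The MYC:MAX E-box CACGTG, which reads the same on both strands, was sought in RefSeq promoter windows of 300 bases (GRCm38.p6), available for 9 of the 10 genes. It was present in 3 of them: Mxd4 at position -219 from the annotated start, Mnt at -123 and Max at -3. Of 32851 mouse windows 7.15% held it. No window was used for Myc.

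Among the 11428 genes tested, those whose profile over the 6 libraries lay nearest to that of Myc were Eras, E130012A19Rik, Dnmt3l, Bmp4 and Calca, with a root mean square distance of 0.312 to 0.451 on the log2 scale after centring on CTR. Eras, an ESC-specific Ras gene, had 31.3 and 29.4 RPKM with miR-294, 12.6 and 12.8 RPKM with siMbd2, and 3.59 and 3.93 RPKM in CTR. Dnmt3l, a cofactor of de novo DNA methylation, had 416 and 411 RPKM with miR-294, 135 and 149 RPKM with siMbd2, and 71.6 and 72.2 RPKM in CTR. Their order of groups is that of Myc because they were chosen by likeness to its profile. Nearest to Mxd3 were Arhgef17, Gnb5, Esrp2, Plxnb2 and Jup, at distances of 0.0687 to 0.116. Jup, which encodes the junction protein plakoglobin, had 35.5 and 34.7 RPKM with miR-294, 84.0 and 85.9 RPKM with siMbd2, and 82.7 and 70.1 RPKM in CTR. Distances around Mxd3 were shorter than around Myc.

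Of 40 genes known as MYC-induced, 34 (85%, against 27.7% of all genes) rose and 2 (5%, against 36.8%) fell with miR-294. The siMbd2 counts were 22 higher (55%, against 19.5%) and 3 lower (7.5%, against 14.9%). The median log2 change of the 40 was 0.62 with miR-294, against -0.08 for all genes tested, and 0.18 with siMbd2, against 0.02 for all genes tested. Set against siMbd2 directly, miR-294 gave 28 higher (70%, against 21.9% of all genes) and 3 lower (7.5%, against 35.5%). Odc1, the first enzyme of polyamine synthesis, had 320 and 322 RPKM with miR-294, 174 and 183 RPKM with siMbd2, and 142 and 136 RPKM in CTR. Srm, the spermidine synthase, had 155 and 153 RPKM with miR-294, 78.6 and 76.1 RPKM with siMbd2, and 59.5 and 48.9 RPKM in CTR. Both genes rose in each treatment, Odc1 by 1.20 with miR-294 and by 0.36 with siMbd2 and Srm by 1.49 with miR-294 and by 0.51 with siMbd2. Ddx21, a nucleolar helicase, rose by 1.13 with miR-294 and by 0.48 with siMbd2, and Nme1, a nucleoside diphosphate kinase, by 1.05 with miR-294 and by 0.67 with siMbd2. Gnl3, which encodes nucleostemin, rose by 0.97 with miR-294 only, its siMbd2 difference being 0.00, and the direct difference passed the test (0.97, limma adjusted p = 8.59e-06).

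Ldha, lactate dehydrogenase, rose in both treatments and stood higher with siMbd2 than with miR-294. It had 427 and 417 RPKM with miR-294, 526 and 508 RPKM with siMbd2, and 362 and 331 RPKM in CTR, and lay at -0.29 in miR-294 against siMbd2 (adjusted p = 0.00352). The 2 genes that fell with miR-294 were Ccnd2 (-0.53), a G1 cyclin, and Tfrc (-0.33), the transferrin receptor. The 3 that fell with siMbd2 were Fbl, Paics and Ptma, at -0.25 to -0.20. The count of MYC-induced genes that rose with siMbd2 was 14 with equal summed RPKM, where 1634 of all genes rose, against 2231 as deposited. It also changed when single libraries were left out, and the share of all genes was not set beside it there. With miR-294 it was 28 to 35 over the scalings, where 19.6% to 32.8% of all genes rose.

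Of 10 genes known as MYC-repressed 9 were tested. Of these, 5 (55.6%, against 36.8% of all genes) fell and 3 (33.3%, against 27.7%) rose with miR-294. The siMbd2 counts were 1 lower (11.1%, against 14.9%) and 3 higher (33.3%, against 19.5%). The number that rose with siMbd2 was 1 with quantile normalization, where 2061 of all genes rose, against 2231 as deposited. The siMbd2 counts also changed when single libraries were left out. Their median log2 change was -0.53 with miR-294 and 0.07 with siMbd2, against -0.08 and 0.02 for all genes tested. Cdkn1a, which encodes the cyclin kinase inhibitor p21, had 17.2 and 15.1 RPKM with miR-294, 59.6 and 64.0 RPKM with siMbd2, and 61.4 and 54.8 RPKM in CTR. It fell with miR-294 (-1.79, limma adjusted p = 2.19e-06) while siMbd2 overlapped CTR. Gadd45b, a stress response gene, showed the same order of groups, at -1.32 with miR-294 and 0.07 with siMbd2. Gadd45a and Ndrg2 went the other way with miR-294, at 0.42 and 0.53. Cdkn1b, which encodes p27, was the 1 gene of the list lower in both treatments, at -1.02 with miR-294 and -0.48 with siMbd2. Thbs1, an inhibitor of angiogenesis, fell by 0.76 with miR-294 and rose by 0.47 with siMbd2. Fth1, ferritin heavy chain, rose in both treatments, to 868 and 879 RPKM with miR-294 and 448 and 442 RPKM with siMbd2, against 391.6 and 366.5 RPKM in CTR. Fth1, Ldha and Set have processed copies elsewhere in the genome, and how reads were shared among such copies was not given in the sources used here.

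**Figure D5:**
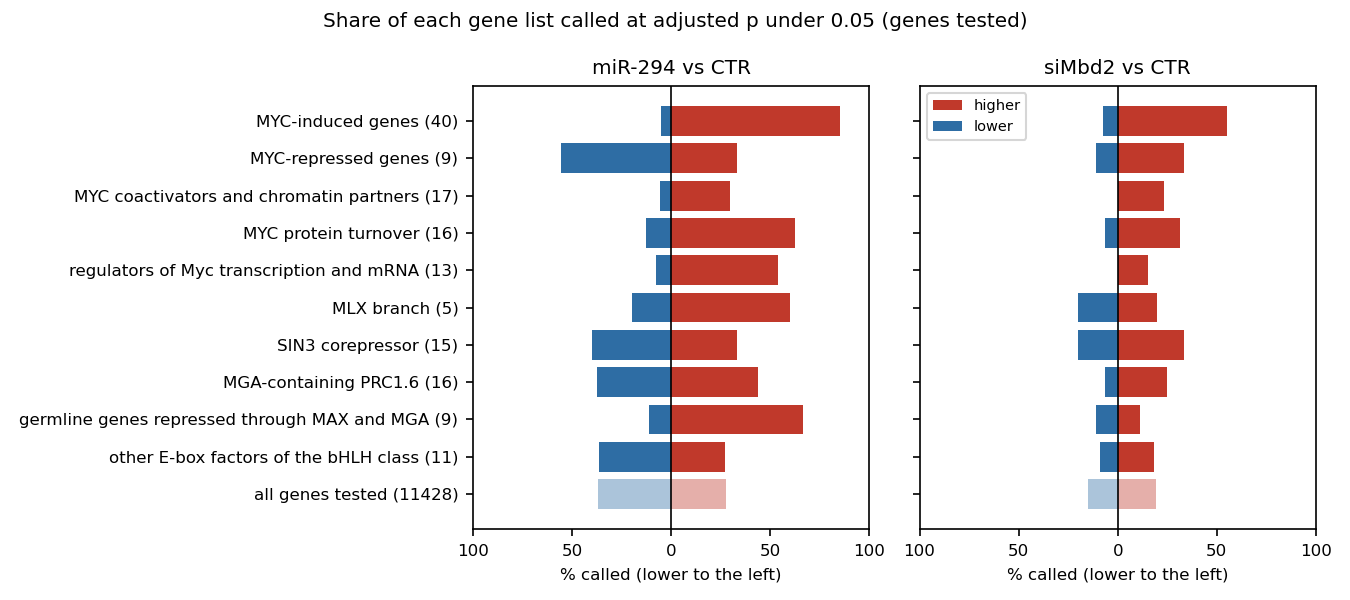
Percent of the tested genes of each list called higher (right of 0) and lower (left of 0) at an adjusted p under 0.05, in miR-294 vs CTR and in siMbd2 vs CTR, with the number tested in parentheses and all genes tested as the last bar. Of the MYC-induced genes 85% rose with miR-294 and 55% with siMbd2, where 27.7% of all genes rose with miR-294 and 19.5% with siMbd2.

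Among genes that act on MYC protein stability 16 of 17 were tested. Of these, 10 (62.5%, against 27.7% of all genes) rose and 2 (12.5%, against 36.8%) fell with miR-294. The siMbd2 counts were 5 higher (31.2%, against 19.5%) and 1 lower (6.25%, against 14.9%). Pim2, a kinase that phosphorylates MYC, had 16.1 and 14.6 RPKM with miR-294, 6.23 and 6.12 RPKM with siMbd2, and 3.74 and 3.53 RPKM in CTR. It shared the order of groups with Myc and rose by 1.82 with miR-294 (limma adjusted p = 2.11e-06) and by 0.63 with siMbd2 (adjusted p = 0.00134). Ppp2r5a, a regulatory subunit of the phosphatase PP2A, rose by 1.05 with miR-294 and by 0.31 with siMbd2. Set, which encodes a PP2A inhibitor, rose by 0.85 with miR-294 and lay at -0.02 with siMbd2, with 1224 and 1242 RPKM with miR-294, 678 and 669 RPKM with siMbd2, and 628 and 743 RPKM in CTR. The 2 that fell with miR-294 were Gsk3b (-0.91), the kinase that marks MYC for degradation, and Skp2 (-0.55), a ubiquitin ligase subunit. Genes that promote and genes that limit MYC stability were thus both among those that rose. Over the scalings 4 to 5 of the 16 rose with siMbd2, where 1634 to 2193 of all genes rose, against 2231 as deposited. The siMbd2 counts also changed when single libraries were left out.

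Of 17 coactivators and chromatin partners of MYC, 5 (29.4%, against 27.7% of all genes) rose and 1 (5.88%, against 36.8%) fell with miR-294. The siMbd2 counts were 4 higher (23.5%, against 19.5%) and 0 lower (0%, against 14.9%). At an unadjusted p under 0.05, 4 were higher and 1 lower with siMbd2. The AAA+ ATPase genes Ruvbl1 and Ruvbl2 both rose with miR-294. Ruvbl1 averaged 92.5 ± 0.86 RPKM with miR-294 and 59.4 ± 2.24 RPKM in CTR (0.63), and Ruvbl2 126 ± 4.65 RPKM with miR-294 and 73.0 ± 6.51 RPKM in CTR (0.78). Wdr5, a histone methyltransferase subunit that binds MYC, rose by 0.45 with miR-294 and by 0.19 with siMbd2, and Cdk9, the elongation kinase, by 0.38 with miR-294 and by 0.53 with siMbd2. Ep400, a chromatin remodeler, fell by 0.36 with miR-294. Zbtb17, which encodes MIZ1, the factor through which MYC represses genes, rose by 0.38 with siMbd2 and lay at 0.10 with miR-294, and the direct difference was -0.28 (limma adjusted p = 0.0465). The number that rose with miR-294 was 8 with median-of-ratios scaling, where 32.8% of all genes rose. With siMbd2 it was 2 to 3 over the scalings, where 1634 to 2193 of all genes rose, against 2231 as deposited. Both numbers also changed when single libraries were left out.

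Among 13 regulators of Myc transcription and mRNA, 7 (53.8%, against 27.7% of all genes) rose and 1 (7.69%, against 36.8%) fell with miR-294. The siMbd2 counts were 2 higher (15.4%, against 19.5%) and 0 lower (0%, against 14.9%), the same as at an unadjusted p under 0.05. Fubp3, of the far-upstream-element binding family, rose by 0.89 with miR-294 and by 0.40 with siMbd2, and Igf2bp1, an RNA-binding protein that stabilises MYC mRNA, by 0.65 with miR-294 and by 0.25 with siMbd2. Cnbp, which binds the Myc promoter, had 419 and 435 RPKM with miR-294, 263 and 270 RPKM with siMbd2, and 246 and 250 RPKM in CTR, and rose with miR-294 (0.78). Stat3, the LIF-responsive factor that drives Myc in ESCs, was the 1 that fell with miR-294, at -0.33 (limma adjusted p = 0.00369). The number that rose with siMbd2 was 1 without either siMbd2 replicate and 5 without CTR replicate 1, and the number that rose with miR-294 was 4 without either miR-294 replicate and 3 with equal summed RPKM or quantile normalization.

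Of 15 subunits of the SIN3 complex, through which MXD and MNT repress, 5 (33.3%) rose and 6 (40%) fell with miR-294. Among all genes 27.7% rose and 36.8% fell, so these shares were near those of all genes. The siMbd2 counts were 5 higher (33.3%, against 19.5%) and 3 lower (20%, against 14.9%). The list median was -0.05 with miR-294 and -0.03 with siMbd2, against -0.08 and 0.02 for all genes tested. Brms1, a metastasis suppressor gene, rose by 0.49 with miR-294 and by 0.55 with siMbd2. Arid4a, which encodes a retinoblastoma-binding subunit, had 9.01 and 8.42 RPKM with miR-294, 13.9 and 13.7 RPKM with siMbd2, and 13.8 and 16.2 RPKM in CTR, and fell by 0.71 with miR-294. Its paralog Arid4b fell by 0.41 and the deacetylase gene Hdac2 by 0.40 with miR-294. Ing2, which reads histone methylation for the complex, fell by 0.66 with siMbd2 and by 0.25 with miR-294. Over the scalings 2 to 5 rose and 3 to 9 fell with miR-294. Of all genes 19.6% to 32.8% rose and 30.4% to 49.4% fell there. With siMbd2, 3 to 5 rose and 3 to 5 fell over the scalings. Of all genes 1634 to 2193 rose and 1925 to 2593 fell there, against 2231 and 1702 as deposited. These counts also changed when single libraries were left out.

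For the PRC1.6 complex, 16 subunits other than Mga and Max were tested. Of these, 7 (43.8%, against 27.7% of all genes) rose and 6 (37.5%, against 36.8%) fell with miR-294. The siMbd2 counts were 4 higher (25%, against 19.5%) and 1 lower (6.25%, against 14.9%). Pcgf6, the subunit that defines the complex, had 40.1 and 41.2 RPKM with miR-294, 28.0 and 29.0 RPKM with siMbd2, and 24.3 and 24.9 RPKM in CTR, and rose by 0.70 with miR-294 and by 0.20 with siMbd2. L3mbtl2, another subunit particular to PRC1.6, rose by 0.72 with miR-294 and by 0.39 with siMbd2, and the chromodomain gene Cbx1 by 0.78 with miR-294. Yaf2, an adaptor found in several PRC1 forms, fell by 0.88 with miR-294, to 3.65 ± 0.18 RPKM, against 7.56 ± 0.80 RPKM in CTR. The methyltransferase gene Ehmt2 rose by 0.27 with miR-294 and by 0.38 with siMbd2. Over the scalings 2 to 3 rose and 1 to 2 fell with siMbd2. Of all genes 1634 to 2193 rose and 1925 to 2593 fell there, against 2231 and 1702 as deposited. With miR-294, 4 to 7 rose over the scalings, where 19.6% to 32.8% of all genes rose. These counts also changed when single libraries were left out.

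Among 12 germline genes known to be repressed through MAX and MGA, 9 were tested. Of these, 6 (66.7%, against 27.7% of all genes) rose and 1 (11.1%, against 36.8%) fell with miR-294. The siMbd2 counts were 1 higher (11.1%, against 19.5%) and 1 lower (11.1%, against 14.9%). The median log2 change was 0.51 with miR-294 and -0.00 with siMbd2, against -0.08 and 0.02 for all genes tested. Dazl, a germ cell RNA-binding protein, had 4.45 and 5.02 RPKM with miR-294, 2.48 and 2.53 RPKM with siMbd2, and 2.05 and 2.21 RPKM in CTR, and rose by 0.87 with miR-294. Taf7l, a testis-specific TFIID subunit, rose in both treatments, by 0.93 with miR-294 and by 0.74 with siMbd2. Stk31, a Tudor-domain kinase gene, rose by 0.62 with miR-294 and fell by 0.48 with siMbd2, and Mael, of the piRNA pathway, rose by 0.64 with miR-294. Hormad1, a meiotic chromosome protein, had 6.89 and 7.48 RPKM with miR-294, 16.2 and 15.6 RPKM with siMbd2, and 16.7 and 22.2 RPKM in CTR, and fell by 1.31 with miR-294. The count that rose with miR-294 was 2 where a mean of at least 5 RPKM was asked, which left fewer of these genes tested. In that setting 31.3% of all genes rose. With siMbd2 the number that fell changed when single libraries were left out. Any relation of these changes to those of Mga, Max and the other PRC1.6 subunits, of which 7 rose and 6 fell with miR-294, was not tested.

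In the MLX branch, a parallel network in which MLX takes the place of MAX and answers to glucose, 5 genes were tested. Of these, 3 (60%, against 27.7% of all genes) rose and 1 (20%, against 36.8%) fell with miR-294. The siMbd2 counts were 1 higher (20%, against 19.5%) and 1 lower (20%, against 14.9%). With equal summed RPKM, where 19.6% of all genes rose, none of the 3 that rose with miR-294 (Mlx, Mlxipl and Arrdc4) passed the test. The number also changed without miR-294 replicate 2. Mlx itself rose by 0.40 with siMbd2 and by 0.25 with miR-294, where it lay at 0.10 with equal summed RPKM (limma adjusted p = 0.214) and at 0.20 without miR-294 replicate 2 (adjusted p = 0.101). Txnip, its glucose-responsive target and an inhibitor of glucose uptake, had 94.7 and 99.8 RPKM with miR-294, 183 and 166 RPKM with siMbd2, and 290 and 237 RPKM in CTR. The 3 groups did not overlap and stood in the reverse order to Myc. Txnip fell by 1.42 with miR-294 (limma adjusted p = 7.59e-06) and by 0.59 with siMbd2 (adjusted p = 0.00273), and lay at -0.84 in miR-294 against siMbd2 (adjusted p = 1.45e-04).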

How the data were processed

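Expression was measured by paired-end Illumina sequencing of 6 libraries. Per the file headers the authors deposited RPKM values per gene and library, and a fold column for each treatment, their ratio of mean RPKM over mock. The submitters' processing notes name CASAVA 1.7, STAR 2.3.0, Cufflinks and the mm10 build, without roles, and the labels describe each sample as a mean of sequencing lanes. Values were analysed as log2(RPKM + 1), which understates changes of low genes. Genes averaging at least 1 RPKM were fitted in limma 3.58.1 (R 4.3.3) as 3 groups with an intensity trend (3 residual and 5.38 prior degrees of freedom), a script tested on simulated data. Seed matches, E-boxes and sums used Python 3.11.15 and pandas 2.3.3, with GENCODE vM21 and RefSeq sequences. GRCm38 and mm10 are the same assembly. The genes and lists were chosen with earlier results of these data known. Text names all 10 genes, from each list up to 4 genes with the lowest adjusted p in miR-294 vs CTR and up to 2 in siMbd2 vs CTR (a gene under this rule is not reported here), and the 5 genes nearest to Myc and to Mxd3; names given for counts of 5 or fewer, and Eras, Dnmt3l and Jup for their values, were chosen after seeing them. Alternatives were other scalings, pseudocounts of 0.1 and 0.5, other filters, fits without the trend or with only the libraries compared, a replicate block, and leaving out each library.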

Additional observations from a re-analysis of the deposited data

How the results depend on the processing

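Myc, Mycn, Mycl, Mxi1, Mxd3, Mxd4 and Mnt kept their direction and call in miR-294 vs CTR under every alternative in which they were tested, as did Myc in siMbd2 vs CTR. The number of the 10 genes that rose with miR-294, 5, became 3 with equal summed RPKM. In that setting 19.6% of all genes rose, against 27.7% as deposited. The number also changed when single libraries were left out. With siMbd2 the 3 that rose became 1 with equal summed RPKM and 1 to 6 without single libraries, and the 0 that fell became 1 (Max) with quantile normalization and with equal summed RPKM, and 0 to 1 without single libraries. In miR-294 vs siMbd2 the 5 that fell became 3 at a minimum mean of 5 RPKM, where only 7 of the genes were tested. Signs turned for differences that were not called: Mxd4 in siMbd2 vs CTR, with a range of -0.0998 to 0.2415 without single libraries (-0.0998 without CTR replicate 2), and Mga in miR-294 vs siMbd2 at -0.00863 with quantile normalization, -0.0543 with equal summed RPKM and -0.0646 to 0.0951 without single libraries (-0.0646 without miR-294 replicate 1). The cause was not tested. Equal summed RPKM moved the median of all genes in miR-294 vs CTR to -0.23, against -0.08 as deposited, and the share of called genes that were higher to 28.4%, against 42.9%. That share in siMbd2 vs CTR was 38.7%, against 56.7%, and in miR-294 vs siMbd2 it was 51.5% with quantile normalization and 50.6% with median-of-ratios scaling, against 38.1%. Relative to the median of -0.23, the Max difference of 0.02 is still positive. With the replicate block Mycl passed in siMbd2 vs CTR (0.31, adjusted p = 0.0263). The labels pair no libraries, and deviations of the same number correlated at 0.119, 0.132 and 0.022 between the groups, across genes, so the block is not used. Over the scalings, the number that rose with miR-294 was 0 to 3 in the MLX branch, 3 to 8 among regulators of Myc, 2 to 5 in SIN3, 4 to 7 in PRC1.6 and 5 to 8 among coactivators, and 3 to 9 SIN3 genes fell. Of all genes 19.6% to 32.8% rose and 30.4% to 49.4% fell over the same scalings. A changed count under an alternative is therefore not by itself a trait of its list. Of 2758 values of the other named genes under alternatives, 2617 kept their call, 141 lost it and 0 reversed; these alternatives for lists were added after seeing the data. When a library is left out, the lone library of its group is assumed to vary like the other groups. RPKM holds no read counts, so precision at low levels (Mxd1, Mxd4, Mycl and the germline genes) cannot be given.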

Other observations

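Of 12 other E-box binding factors of the basic helix-loop-helix class, which do not use MAX, 11 were tested. With miR-294, 3 (27.3%) rose and 4 (36.4%) fell, near the 27.7% and 36.8% of all genes. The siMbd2 counts were 2 higher (18.2%, against 19.5%) and 1 lower (9.09%, against 14.9%). Bhlhe40, a repressor of the circadian clock, had 5.70 and 5.06 RPKM with miR-294, 20.0 and 20.3 RPKM with siMbd2, and 19.1 and 18.8 RPKM in CTR, and fell by 1.65 with miR-294 (limma adjusted p = 2.11e-06). Clock, another gene of the circadian clock, fell by 1.09 and Tcf12, an E protein, by 0.55 with miR-294. Arntl rose by 0.49 and Usf1 by 0.35 with miR-294. Tfe3, a lysosomal and metabolic regulator of ESCs, rose by 0.95 with miR-294 and by 0.76 with siMbd2, with 42.9 and 42.3 RPKM with miR-294, 34.7 and 40.0 RPKM with siMbd2, and 21.6 and 21.7 RPKM in CTR. Mitf fell by 0.30 with siMbd2 and lay at -0.04 with miR-294. Over the scalings 1 to 2 rose and 1 to 3 fell with siMbd2. Of all genes 1634 to 2193 rose and 1925 to 2593 fell there, against 2231 and 1702 as deposited. Both counts also changed when single libraries were left out.

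Of the 12 ESC markers 4 (33.3%, against 27.7% of all genes) rose and 5 (41.7%, against 36.8%) fell with miR-294. The siMbd2 counts were 6 higher (50%, against 19.5%) and 2 lower (16.7%, against 14.9%). The 6 became 2 with quantile normalization, where 2061 of all genes rose, against 2231 as deposited. The number also changed when single libraries were left out. The 4 that rose with miR-294 were Utf1 (0.77), Zfp42 (0.65), Pou5f1 (0.52) and Tdgf1 (0.36), and of these Utf1 (0.36) and Pou5f1 (0.33) also rose with siMbd2. Nanog and Sox2 fell in both treatments: Nanog by 0.80 with miR-294 and by 0.33 with siMbd2, and Sox2 by 0.51 with miR-294 and by 0.42 with siMbd2. Klf2 fell by 0.51 and Dppa5a by 0.36 with miR-294, and Tfcp2l1 fell by 0.52 with miR-294 and rose by 0.22 with siMbd2. Dppa5a rose by 0.26 with siMbd2. Of the 11 differentiated lineage markers 5 were tested, of which 1 rose (Krt18, 0.53) and 4 fell with miR-294 (Gata4, Sox1, Pax6 and Nes), and 2 rose and 2 fell with siMbd2. These are 20% and 80% with miR-294 and 40% and 40% with siMbd2, beside the shares of all genes given above. Thy1, which marks fibroblasts but also other cells, rose by 0.83 with miR-294 and fell by 0.30 with siMbd2.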
